A study of Mus musculus with 9 samples.

Results

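The Mef2, myocardin and SRF muscle regulators are 9 genes, namely Mef2a, Mef2b, Mef2c, Mef2d, Myocd, Mkl1, Mkl2, Srf and Hopx. They were followed through a list of accessible chromatin regions of pharyngeal mesoderm and hearts of early mouse embryos. Every distinct region whose assigned gene symbol was one of the 9 was taken, which gave 13 of 17164 regions. These 13 regions were assigned to 8 of the 9 genes, and Hopx had none in the list used here.

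The study addressed how Isl1, a LIM-homeodomain transcription factor, and Brg1, the ATPase of the SWI/SNF remodeling complex, shape open chromatin in cardiac progenitors. Open DNA was mapped by ATAC-Seq, an assay built on insertion of adapters by the Tn5 transposase, in E8.75 mouse pharyngeal mesoderm and hearts at the 6 somite stage. The 9 libraries came from 3 genotypes with 3 libraries each, labeled wt, Isl1-/- and Isl1Cre+/-/ Brg1fl/fl, and only the wt control libraries had a list used here. In Isl1Cre+/-/ Brg1fl/fl embryos Cre acts in cells that express Isl1 and in their descendants, and neither mutant genotype was analyzed here. The control list holds the regions found in all 3 wt libraries, with positions on mm9, 1 assigned gene each and a distance to the transcription start site (TSS) of that gene, and no height or value per library. No value below therefore has a replicate error, none was tested, and sequencing depth is unknown.

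Mef2 proteins are MADS-box transcription factors that bind an AT-rich site, the MEF2 site, in the control regions of muscle genes. SRF, a related MADS-box factor, binds the CArG box and has little activity of its own until a partner joins it. Myocardin, and its relatives Mkl1 and Mkl2 (MRTF-A and MRTF-B), are such partners, and the small homeodomain protein Hopx restrains SRF in the developing heart.

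The dissected tissue holds several cell types, so a region present in part of the cells and one present in all of them cannot be told apart. Of 8 cardiac markers 4 had a region, namely Isl1, Tbx20, Hand2 and Gata4, whereas Nkx2-5, Gata6, Tbx5 and Hand1 had none in the list used here. Regions were also assigned to 3 of 5 pharyngeal, 4 of 5 endothelial, 1 of 4 erythroid, 4 of 5 neural, 2 of 4 neural crest and 3 of 4 endoderm markers. Over all protein-coding genes 49.3% had a region, so these small counts do not tell the cell types apart. The part of these other cell types in the regions described here was not tested.

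Sequences of Srf, Mef2a and Mef2c are printed for letters that match the CArG box, the MEF2 site, or sites of Isl1 and GATA factors. A match of letters is not a site shown to be bound. The sequences are given from NCBIM37, the same build as mm9, 5′ to 3′ on the strand of the gene, with the matching letters in capitals. The Srf promoter on chr17:46693086-46693261 holds a pair of CArG boxes just upstream of its TSS. The Mef2a sequence on chr7:74517719-74517844 holds a MEF2 site across the annotated TSS. The Mef2c sequence on chr13:83663023-83663052 holds a MEF2 site downstream of the second TSS. The region far upstream of Mef2c holds a CArG box and a core recognized by Isl1 on chr13:83270398-83270613, and an Isl1 core that overlaps a GATA site on chr13:83270176-83270237.
Srf: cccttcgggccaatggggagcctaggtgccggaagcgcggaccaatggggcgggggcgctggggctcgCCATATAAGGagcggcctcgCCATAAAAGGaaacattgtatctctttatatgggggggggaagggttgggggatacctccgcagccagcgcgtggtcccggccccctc
Mef2a: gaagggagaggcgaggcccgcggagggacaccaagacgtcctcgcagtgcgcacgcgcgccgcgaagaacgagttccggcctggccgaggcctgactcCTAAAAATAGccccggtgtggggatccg
Mef2c, second start: caccgtaaaaCTAAAATTAGcaaaatgtca
Mef2c, far upstream with CArG box: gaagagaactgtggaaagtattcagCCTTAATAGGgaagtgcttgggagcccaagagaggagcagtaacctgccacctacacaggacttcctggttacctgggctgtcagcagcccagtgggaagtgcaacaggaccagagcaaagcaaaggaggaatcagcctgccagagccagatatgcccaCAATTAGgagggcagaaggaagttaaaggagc
Mef2c, far upstream with GATA site: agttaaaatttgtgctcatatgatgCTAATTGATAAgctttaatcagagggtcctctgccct

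Accessible chromatin lay at the TSS of most of these genes. Of the 9 genes 8 (88.9%) had an assigned region, beside 10364 of 21031 protein-coding genes (49.3%). A region centered within 1 kb of the assigned TSS, referred to below as a promoter region, was present at 7 of the 9 (77.8%), beside 8543 coding genes (40.6%). The exceptions were Mef2b, whose only region lay inside the gene, and Hopx. The 9 genes were chosen with these data known, so their shares are a description and were not compared by a test. Mef2c had 5 regions, Mef2a had 2, and Mef2b, Mef2d, Myocd, Mkl1, Mkl2 and Srf had 1 each. Over the 11541 genes with a region in the whole list, 73.2% had 1 region and 2.61% had 5 or more.

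**Figure D1:**
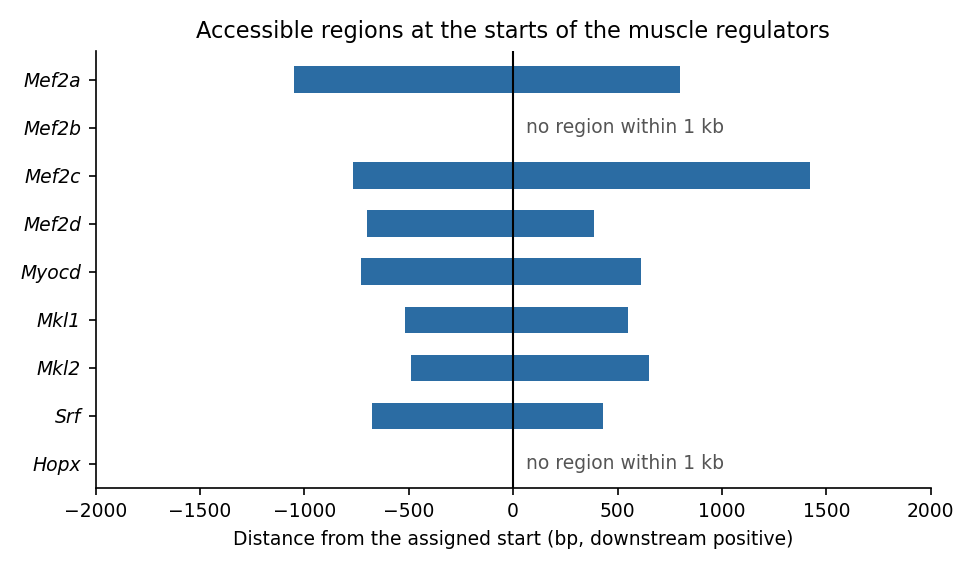
Accessible regions within 1 kb of the assigned TSS of each gene, as bars along the distance from that TSS in bp, with downstream positive and the TSS at 0. All 7 bars span their TSS, that of Mef2c reaches farthest downstream at 1424 bp and that of Mef2a farthest upstream at 1048 bp, and Mef2b and Hopx have no bar.

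All 7 promoter regions spanned their TSS, as the plot of regions around the starts shows. Their centers lay between 157 bp upstream of the TSS, at Mef2d, and 328 bp downstream, at Mef2c. The regions reached 488 to 1048 bp upstream and 385 to 1424 bp downstream of the TSS. Their median width was 1140 bp, beside 1294 bp over the 9083 promoter regions of the list. The 6 regions farther away had a median width of 950 bp, the same as the median over all 8081 regions of that kind. By midpoint 7 of the 13 regions lay at a start, 4 in an intron, 2 in intergenic DNA and 0 in an exon. Over all regions 56.0% lay at a start, 15.6% in an intron, 26.7% in intergenic DNA and 1.67% in an exon.

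**Figure D2:**
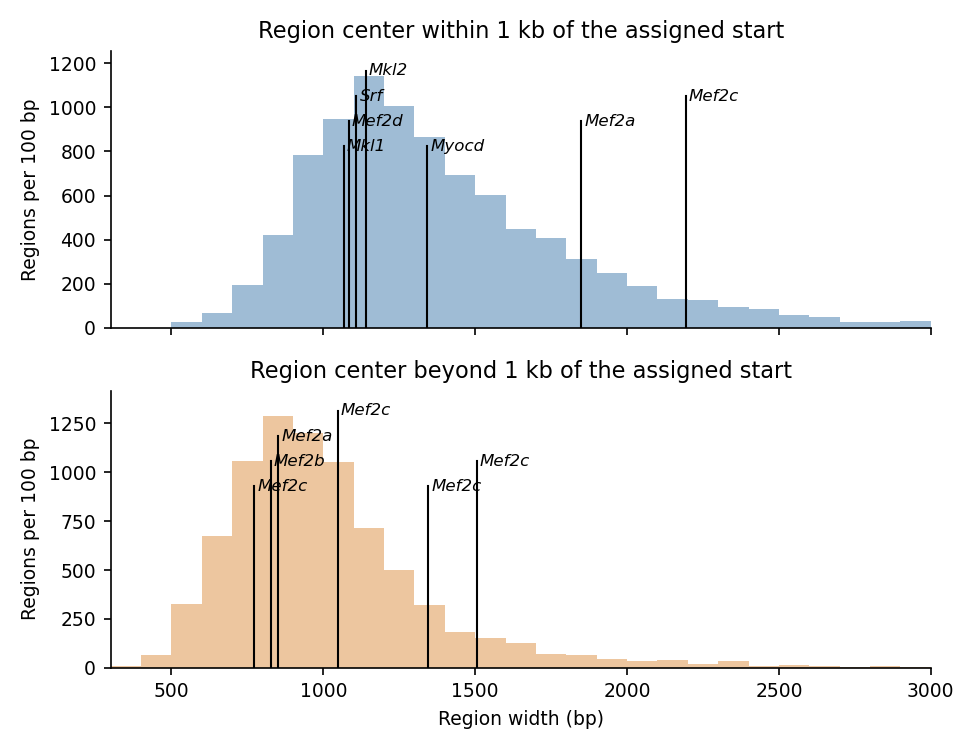
Histograms of region width in bp, in bins of 100 bp, for regions centered within 1 kb of the assigned TSS (top) and beyond it (bottom), with a vertical line at each region of the muscle regulators. Mef2c (2193 bp) and Mef2a (1850 bp) stand in the upper tail of the top panel and the other 5 promoter regions near or below its median of 1294 bp, and 3 of the 4 Mef2c lines in the bottom panel lie above the median of 950 bp. Widths above 3000 bp are not drawn.

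Among the Mef2 genes, Mef2c is the earliest expressed in heart precursors and is needed for the right ventricle and outflow tract. Its promoter region on chr13:83661887-83664079 was 2193 bp wide, wider than 93.5% of promoter regions in the list. Mef2a, which becomes prominent later in cardiac muscle, had a promoter region of 1850 bp on chr7:74516943-74518792, wider than 85.7%. The Mef2d region on chr3:87945596-87946679 was 1084 bp wide, wider than 25.0%. Mef2d is the broadly expressed member of the family.

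Mef2a also had a distal region on chr7:74608123-74608974, 852 bp wide. It lay 90804 bp upstream of the TSS in intergenic DNA. Its CpG frequency was 1.41 per 100 bp, beside 9.41 in the promoter region of the gene. No other region lay between the 2, and none had its center inside the Mef2a gene body.

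Mef2b, the most divergent Mef2 gene, had its single region on chr8:72682134-72682960, 827 bp wide, in intron 1. The center of the region was 5887 bp downstream of the RefSeq TSS. The interval also lies within readthrough transcripts of the neighboring Borcs8, named 2310045N01Rik in GENCODE, so the region cannot be given to Mef2b alone. It had 60.3% GC and 4.59 CpG per 100 bp, the highest CpG frequency of the 6 regions outside promoters. Another 4 regions lay within 100 kb of its starts and were assigned to Armc6, Borcs8, Slc25a42 and Tmem161a.

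Mef2c had the most extended set of regions, 5 across 454 kb. The deposited distances of its regions were measured from 3 different starts. RefSeq promoter sequences of GRCm38.p6, located in NCBIM37 by exact match, gave the same 3 starts on chromosome 13, at 83643033, 83662655 and 83712765. Only the second, 83662655, lay inside a region. The first start, which 4 of the 5 GENCODE transcripts use, was 14246 bp from the nearest region center. The third was 1407 bp from the nearest center and outside that region.

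The letters upstream of the 3 starts are shown because the starts differ in CpG frequency, and CG dinucleotides are in capitals. Each run is the 150 bp before a start, on chr13:83642883-83643032, chr13:83662505-83662654 and chr13:83712615-83712764. They hold 1, 5 and 3 CpG, and the second is the one inside an accessible region. Within 500 bp of the starts the CpG frequencies were 1.3, 3.8 and 1.1 per 100 bp, so by that wider count the third start was lowest.
Mef2c, start at 83643033: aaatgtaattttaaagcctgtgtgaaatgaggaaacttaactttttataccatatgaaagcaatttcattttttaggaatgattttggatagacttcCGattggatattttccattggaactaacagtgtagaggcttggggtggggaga
Mef2c, start at 83662655: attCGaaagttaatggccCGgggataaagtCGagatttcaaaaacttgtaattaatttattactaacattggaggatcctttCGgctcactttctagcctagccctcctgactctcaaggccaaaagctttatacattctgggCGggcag
Mef2c, start at 83712765: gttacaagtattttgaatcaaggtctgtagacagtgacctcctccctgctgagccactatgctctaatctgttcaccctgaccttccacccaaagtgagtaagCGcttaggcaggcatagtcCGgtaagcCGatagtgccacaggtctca

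The promoter region of the second start also covered a GENCODE start at 83663976 and 104 bp of a Mef2c exon. A region of 1346 bp on chr13:83656607-83657952 lay in intron 1, 5376 bp upstream of the second start. It was wider than 87.4% of the regions beyond 1 kb. Further in, a region of 772 bp on chr13:83710973-83711744 lay 1407 bp upstream of the third start, and a region of 1048 bp on chr13:83722670-83723717 lay 10428 bp downstream of it. Both lay in introns. The 2 regions near the third start were narrower than that in intron 1, and the smaller was wider than 22.6% of the regions beyond 1 kb.

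The fifth Mef2c region, on chr13:83269792-83271296, lay 372489 bp upstream of the first start in intergenic DNA. At 1505 bp it was wider than 91.6% of regions beyond 1 kb. It had 42.3% GC and 0.797 CpG per 100 bp. Among genes with 5 regions and 1 of them within 1 kb of the TSS, of which there were 94, those with the span most like that of Mef2c were 1190002N15Rik at 453 kb, Prex2 at 451 kb and Grb14 at 447 kb.

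**Figure D3:**
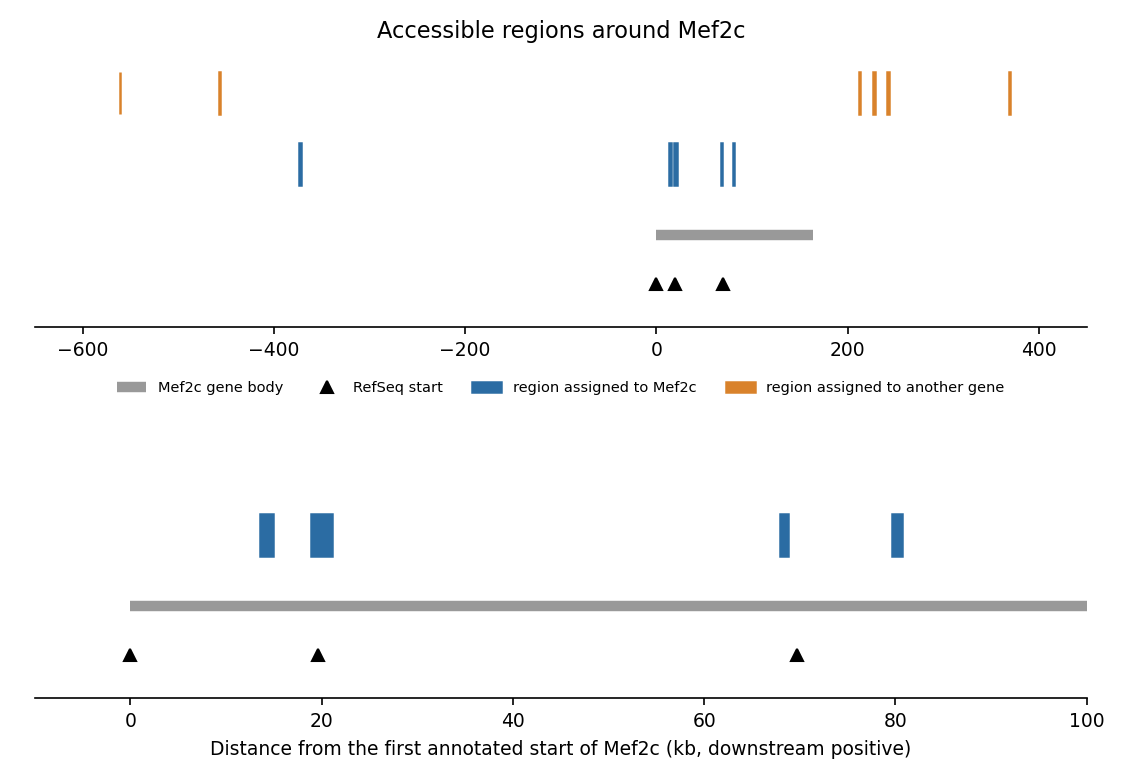
Regions around Mef2c, by distance in kb from its first annotated start with downstream positive, over the wide locus (top) and the first 100 kb of the gene (bottom). Blue bars are regions assigned to Mef2c, orange bars the 6 regions assigned to another gene that have Mef2c as the nearest protein-coding gene, the gray line the gene body and triangles the 3 RefSeq starts. Only the triangle at the second start lies under a blue bar, and 1 blue bar stands 372 kb upstream of the gene.

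Beyond these 5, another 6 regions had Mef2c as the gene with the nearest protein-coding start, and the list gave them to noncoding genes. Mir3961 received 2 upstream regions, at 457280 and 560875 bp from the start. Downstream of the gene, C130071C03Rik received 2 regions, and Mir9-2 and 2810049E08Rik received 1 each. These 4 lay 47.8 to 205 kb past the 3′ end of Mef2c. C130071C03Rik and Mir9-2 belong to the locus of a neural microRNA. The map of the Mef2c locus shows them as a separate downstream group. With protein-coding starts alone Mef2c thus counted 11 regions.

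Myocd, the cardiac and smooth muscle coactivator, had 1 region of 1343 bp on chr11:65082879-65084221. The region was centered 59 bp upstream of the TSS and was wider than 55.0% of promoter regions. It covered 4 of the 7 GENCODE starts of the gene, and none of the 3 internal starts. No region had its midpoint inside the Myocd gene body. The 1 other region within 100 kb of a start was assigned to Arhgap44. The Myocd promoter had 55.5% GC and 4.39 CpG per 100 bp, the second lowest CpG frequency of the 7 promoter regions after Mef2c at 4.01.

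Mkl1 and Mkl2, which carry signals from the actin cytoskeleton to SRF, each had 1 promoter region. The Mkl1 region on chr15:81020639-81021706 was 1068 bp wide and centered 15 bp from the TSS. It overlapped an exon and held an annotated start of 4930483J18Rik, a gene annotated on the opposite strand. The Mkl1 region thus cannot be given to Mkl1 alone. The Mkl2 region on chr16:13256086-13257225 was 1140 bp wide and centered 81 bp downstream. Widths of the pair were thus alike, wider than 23.4% and 31.7% of promoter regions. Both genes have further starts inside the gene that no region covered, 6 of 11 GENCODE starts at Mkl1 and 2 of 4 at Mkl2. One more region, assigned to Mir193b, lay 19.2 kb beyond the Mkl2 gene and had Mkl2 as the nearest coding gene.

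Srf had 1 region of 1109 bp on chr17:46692680-46693788, centered 123 bp upstream of its single annotated TSS. It was wider than 28.2% of promoter regions, had 64.5% GC and held 7.57 CpG per 100 bp. Its midpoint also lies in an intron of Gm16736, a long gene on the opposite strand that spans Srf. The regions of Srf, Mkl1, Mkl2 and Mef2d lay between 1068 and 1140 bp, and that of Myocd was 1343 bp.

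Hopx, on chr5:77515468-77544186, was the single gene of the 9 with no assigned region. No region was centered within 50 kb of any of its 3 GENCODE starts. The nearest region, on chr5:77444552-77445673, was 79166 bp from a start and was assigned to Thegl. The gene lay in a stretch of 248043 bp without a region, and 84.1% of the 17143 gaps between neighboring regions were shorter. The median gap was 72839 bp. Long gaps cover more of the genome than their share of gaps, so this share does not make the gap at Hopx unusual. Longer stretches without a region lay at other genes of the 9. Beside Myocd none lay between 65084221 and 65600933, and over most of Mkl1 none between 80629325 and 81020639. The next region on the other side was assigned to Rest.

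Accessible regions were more frequent at CpG-rich starts, so each gene was set beside coding genes of like CpG frequency, counted within 500 bp of a start. For this purpose 22225 GENCODE coding genes were placed by their most CpG-rich start, and a region counted when its center lay within 1 kb of any start, whatever gene it was assigned to. By this wider definition 44.4% of genes had a region. In the 10% of genes with the most CpG, which hold Mef2a (11.7 CpG per 100 bp), Mef2d (11.1) and Mkl2 (9.99), the share was 76.7%. Srf (9.39) and Mkl1 (8.69) belonged to the 10% of genes ranked next, at 73.5%. Myocd (4.80) fell where 65.7% had a region, Mef2c (3.77) where 54.4% did and Mef2b (2.30) where 23.0% did. Hopx (6.89) fell where 71.0% did.

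The place of Mef2c and Hopx depends on the start. In a ranking of all 70008 starts of these genes by their own CpG frequency, chosen after the data had been examined, the Mef2c start at 83663976 fell where 54.8% of starts had a region within 1 kb. The Mef2c start at 83643033, with 1.30 CpG per 100 bp, fell where 2.79% did. The 2 starts of Hopx with 6.69 and 6.89 CpG per 100 bp fell where 69.2% did, and its first start, with 3.20, where 21.5% did.

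**Figure D4:**
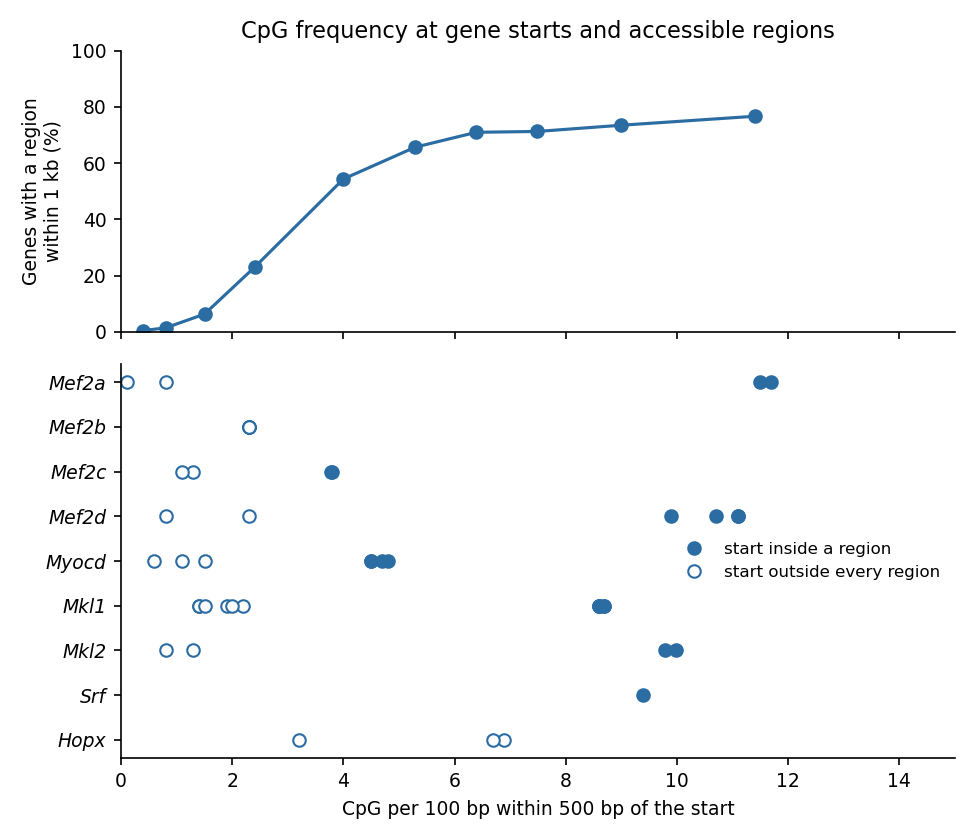
Top, share of GENCODE coding genes with a region centered within 1 kb of any start, in percent, against the median CpG frequency of each 10% of genes, with each gene placed by its most CpG-rich start. Bottom, CpG frequency within 500 bp of each start of the 9 genes, filled where the start lies inside a region and open where it lies outside every region. All filled points lie at 3.77 CpG per 100 bp or higher, all open points outside Hopx at 2.30 or lower, and the Hopx points, up to 6.89, are all open.

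Within genes the same order held. Every GENCODE start inside a region had at least 3.77 CpG per 100 bp, and every start outside had at most 2.30, except the 3 starts of Hopx at 3.20, 6.69 and 6.89. The upstream 150 bp of Myocd on chr11:65083492-65083641, which was accessible, and of the Hopx second start on chr5:77524301-77524450, where no region was listed, are given for comparison with CG in capitals. They hold 10 and 16 CpG.
Myocd: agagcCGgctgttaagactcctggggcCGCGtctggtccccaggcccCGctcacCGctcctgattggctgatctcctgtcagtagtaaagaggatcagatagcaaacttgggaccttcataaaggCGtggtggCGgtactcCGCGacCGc
Hopx, second start: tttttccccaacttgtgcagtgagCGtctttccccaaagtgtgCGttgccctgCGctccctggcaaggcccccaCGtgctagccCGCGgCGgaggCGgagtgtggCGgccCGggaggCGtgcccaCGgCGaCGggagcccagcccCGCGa

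Of the 14 RefSeq starts of these genes that were located, 7 lay inside a region. The same count over all RefSeq starts was not made. By a different measure, 37.2% of the 70008 GENCODE starts of coding genes had a region center within 1 kb. The table of promoter sequences matched 8 of the 9 genes, and Myocd was not among them. Covered were the single starts of Mef2a, Mef2d and Srf, 1 of 3 at Mef2c, 1 of 2 at Mkl1 and 2 of 3 at Mkl2. The start of Mef2b and both starts of Hopx were not covered.

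Matches to binding sites were searched on both strands in the 300 bp at the center of each region. A match is a description of letters and not a site shown to be bound. The CArG box was matched in 2 of the 13 regions, beside 1.11% of all 17164 regions, and the MEF2 site in 2, beside 1.24%. Together 4 of the 13 regions held one or the other, beside 2.34% of all regions. Among promoter regions alone the counts were 3 of 7, beside 1.34%. In whole regions, of any width, 5 of 13 held a match, beside 14.7%, and the added region was that in intron 1 of Mef2c.

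The 4 regions belong to Srf, Mef2a and Mef2c. In Srf, CCATATAAGG and CCATAAAAGG lay 77 and 57 bp upstream of the TSS, 10 bp apart, as the first printed sequence shows. In Mef2a, CTAAAAATAG lay across the annotated TSS, with its midpoint 3 bp downstream. In Mef2c, CTAAAATTAG lay 382 bp downstream of the second start, followed by the TEAD letters at 400 bp and a GATA site at 431 bp. The far upstream Mef2c region held CCTTAATAGG 117 bp from its center. Each of these genes thus had letters of a MADS-box site in its own accessible region, and Mef2d, Myocd, Mkl1, Mkl2 and Mef2b had none in the 300 bp searched.

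Letters recognized by other cardiac factors were searched in the same windows. The GATA site, AGATAA or TGATAA, was matched in 2 of the 13 regions, at Mef2d and the second start of Mef2c, beside 13.5% of all regions. Both were promoter regions, 2 of 7 beside 5.45%, and of the regions beyond 1 kb 0 of 6 matched, beside 22.5%. The core recognized by Isl1, CTAATGG or CTAATTG, was matched in 1, the far upstream Mef2c region, where it is printed as CAATTAG, its reverse complement, beside 3.96%. Among regions beyond 1 kb that was 1 of 6, beside 6.36%. The letters bound by Nkx2-5, TCAAGTG or TTAAGTG, were matched in 0 of 13, beside 4.44%. The TEAD letters, GGAATG, were matched in 1, beside 15.4%, and the GC box, GGGCGG, in 6, beside 45.7%. In the far upstream Mef2c region the printed Isl1 core CTAATTG shares its last bases with the GATA site TGATAA, outside the central 300 bp. Outside that window an Isl1 core also lay in the Mef2c region on chr13:83722670-83723717. GATA and Nkx2-5 letters lay outside it in regions of Mef2a, Mef2c and Mef2d. For these letters no share was computed over whole regions. The counts are small and none was tested.

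Letters of these sites also occurred at starts with no region. Among 32851 RefSeq promoters of 300 bp, 1.63% held a CArG box and 3.19% a MEF2 site. The first start of Hopx held a CArG box 78 bp upstream, on chr5:77544212-77544241, and an internal start of Mkl2 held a MEF2 site 161 bp upstream, on chr16:13358339-13358368. They are shown, with the matching letters in capitals, beside the accessible sites printed above.
Hopx, first start: taacccgagtCCAAATAAGGaagctgggga
Mkl2, internal start: gctagagattTTATTTTTAActgcttgact

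Genes of proteins that act with these factors also had regions in most cases. Of 16 partners and regulators, among them ternary complex factors, class II histone deacetylases and kinases that relieve their repression, 14 (87.5%) had a region and 12 a promoter region. Over all coding genes 49.3% had a region and 40.6% a promoter region, and the partners were chosen with results of these data known. The CpG frequency at the starts of the partner genes was not examined. The most regions, 3 each, were assigned to the deacetylase gene Hdac9, the LIM-only gene Fhl2 and the calcium-dependent kinase gene Camk2d. The widest region, 2346 bp, was assigned to the kinase gene Prkd1. Elk3 and Hdac7 had none.

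Target genes of SRF and Mef2 were taken as a muscle list and an early response and cytoskeletal list, chosen with results of these data known. Over all coding genes 49.3% had a region and 40.6% a promoter region. The CpG frequency at the starts of the listed genes was not examined. Of 18 muscle target genes, most of which encode contractile or cytoskeletal muscle proteins and which also include the natriuretic peptide gene Nppa, the methyltransferase gene Smyd1 and the creatine kinase gene Ckm, 5 (27.8%) had a region and 1 (5.56%) a promoter region. That 1 was Smtn, a smooth muscle cytoskeletal gene, with 2 regions of up to 1576 bp, the nearer 11 bp from the TSS. Des, Xirp1, Myom1 and Csrp1 had 1 distal region each, 12308 to 40917 bp from the TSS. The other 13, among them Actc1, Myl7, Myh6, Tagln and Acta2, had none in the list used here. Of 17 early response and cytoskeletal target genes 15 (88.2%) had a region and 12 (70.6%) a promoter region. Cyr61, a secreted matrix protein gene induced through SRF, had the most regions, 4, and the widest, 2912 bp. Egr3 and Actg1 had none.

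**Figure D5:**
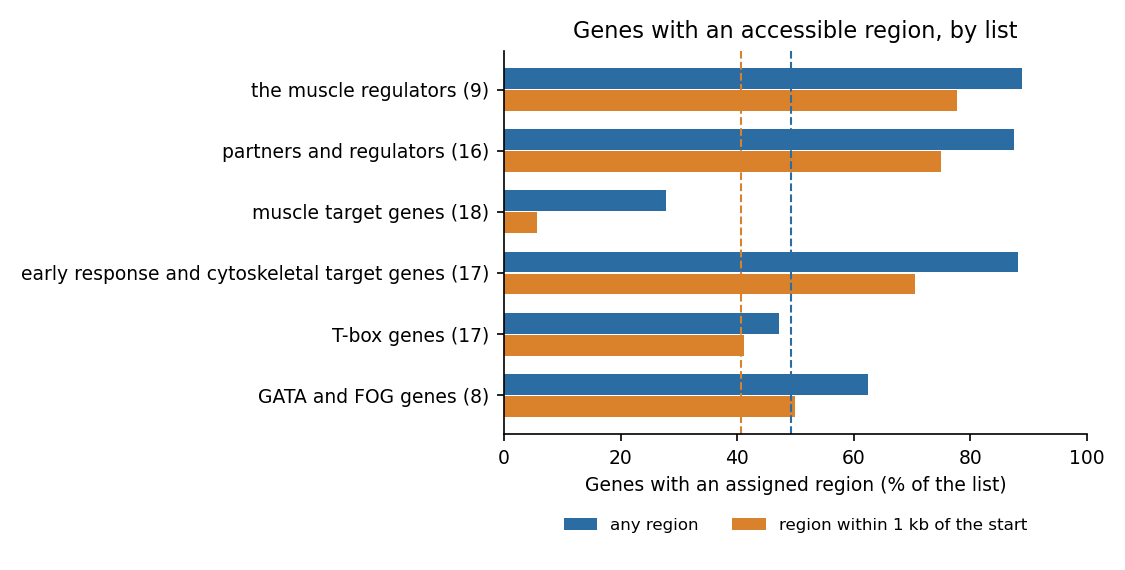
Share of each list's genes with any assigned region (blue) and with a region within 1 kb of the TSS (orange), in percent, with the number of genes in parentheses. Dashed lines mark the same shares over 21031 coding genes, 49.3% and 40.6%. The bars of the muscle regulators, of their partners and of the early response targets lie above both lines and those of the muscle targets below both.

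T-box genes and GATA and FOG genes, taken as whole families and not as heart genes alone, were set beside these genes for scale. Over all coding genes 49.3% had a region and 40.6% a promoter region. Of 17 T-box genes 8 (47.1%) had a region and 7 (41.2%) a promoter region, and Tbx18 had the most regions, 5, and the widest, 2674 bp. Of 8 GATA and FOG genes 5 (62.5%) had a region and 4 (50.0%) a promoter region, with 2 regions each at Gata3 and Zfpm1 and the widest, 2339 bp, at Zfpm2. The differences between lists were not tested, and the lists were chosen with results of these data known. CpG frequency at the starts of the T-box, GATA and FOG genes was not examined.

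Within 100 kb of a start of the 9 genes the list held 24 regions, whatever gene they were assigned to. Mef2b had 5 in this window and Mef2c 4. Mef2a, Mkl2 and Srf had 3 each, Mef2d and Myocd 2 each, and Mkl1 and Hopx 1 each. All 4 at Mef2c were assigned to Mef2c. At Srf 2 of the 3 were assigned to the close neighbors Cul7 and Dnph1.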

How the data were processed

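ATAC-Seq libraries were made from wt, Isl1-/- and Isl1Cre+/-/ Brg1fl/fl embryos, and the control list alone was used. The authors mapped reads to mm9 with Bowtie2, removed duplicates with Picard 1.136, called peaks per library with MACS14 without a model and with a fixed shift, removed blacklisted peaks, and kept regions overlapping in the 3 wt libraries with bedtools 2.15. The deposited values are region positions and distances to the TSS in bp. No Tn5 offset is stated, and widths include the tag extension. Overlap in part was enough to keep a region, so its width need not be the same in all 3 libraries. ChIP-Seq peaks were annotated by the authors with annotatePeaks.pl, which takes the closest TSS, and the tool that assigned genes to these ATAC-Seq regions is not given in the sources used here.

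Rows with equal coordinates were counted once, and widths were taken as end minus start plus 1. Of the per-sample columns 0 were left unmapped. The midpoint of a region gave its place in GENCODE vM1 on NCBIM37, where a start within 1 kb took precedence over an exon, and an exon over an intron. RefSeq promoters of GRCm38.p6 were located by exact match, and the coding background came from the same RefSeq release. CpG was counted within 500 bp of a start. Motif search was checked on simulated sequences. Members and lists were chosen with earlier results of these data known. Genes named were all 9 members, in each list those with the most regions and the widest, the 3 most like Mef2c in number and span of regions, and the gene nearest to Hopx. Other genes named in the lists, such as those without a region, were named after their values were seen. Alternatives were all deposited rows, wider regions only, other gene assignments, distances and motif settings. Python 3.11.15, numpy 2.4.6, pandas 2.3.3 and matplotlib 3.10.9 were used.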

Additional observations from a re-analysis of the deposited data

How the results depend on the processing

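Of 16 values recomputed, 11 stayed within 1.5 times the reported count or within 1 SD of region width (411 bp). Without the regions narrower than the median width (1123 bp), 6 regions in place of 13 and 4 genes in place of 8 remained, beside 32.6% of coding genes. With each region given to the nearest protein-coding start, 20 regions were counted. Within 50 kb and 200 kb of the starts, 13 and 43 regions lay in place of 24 within 100 kb. The number of genes with a region near the TSS was 7 at 500 bp and at 2 kb. No paired analysis was possible because the list holds no value per library, and no library could be left out for the same reason. Depth is unknown, and regions had to be found in each of 3 libraries, so a gene without a region may still have open chromatin.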
